A study of Mus musculus with 2 samples.

Results

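Tnnt1-gated neurons are thalamic glutamatergic neurons with a high level of Tnnt1, the slow skeletal troponin T gene. They were taken from droplet-based single-cell RNA sequencing of the thalamus of 2 wildtype C57BL/6J mice, an inbred laboratory strain, at the age of 2 months. Both mice were untreated, carry no allele named in the labels and form a single group, with 1 library per mouse. A cell was kept with at least 500 genes, at least 10000 unique molecular identifiers (UMIs, each standing for 1 counted transcript molecule) and at most 15% mitochondrial UMIs. A kept cell was called a glutamatergic neuron with at least 2 UMIs of Slc17a6 plus Slc17a7, the vesicular glutamate transporter genes, at most 2 UMIs of Gad1 plus Gad2, the enzymes of GABA synthesis, and at least 10 UMIs of Snap25 plus Syt1, genes of synaptic vesicle release. The Tnnt1 gate was set at 1.5 Tnnt1 UMIs per 10000 UMIs of the cell. The members were thus chosen by the UMI counts of these genes, Tnnt1 above all. The gate held 262 of 2708 glutamatergic neurons among 11840 cells past the filters, of which 87 of 454 glutamatergic neurons were from mouse 1 and 175 of 2254 from mouse 2. That is 19.2% of the glutamatergic neurons of mouse 1 (95% exact binomial interval 15.6 to 23.1%) and 7.76% of those of mouse 2 (6.69 to 8.95%), and the intervals, which cover counting error alone, did not overlap. The share in the dissected tissue rests on 1 library per mouse and has no replicate check. Throughout, pairs of values are given as mouse 1 and mouse 2.

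The thalamus passes sensory, motor and other signals to the cerebral cortex through glutamatergic relay neurons, which are grouped in nuclei. In the mouse thalamus, Tnnt1 has been used as a marker of neurons that project to primary sensory and motor cortex, while Necab1 and Calb2, both genes of calcium-binding proteins, mark neurons of other relay nuclei. Relay neurons fire in tonic and in burst mode, shaped by low-threshold calcium channels and hyperpolarisation-activated channels. The habenula, next to the thalamus, holds glutamatergic neurons of another kind. Cells with at least 1 UMI per 10000 of Pou4f1 plus Gng8, genes that mark habenular neurons, formed a habenular gate of 124 and 329 neurons, and no Tnnt1-gated neuron fell into it. The remaining 243 and 1750 glutamatergic neurons are called the other neurons below.

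The sequences just before the RefSeq start of 3 genes are shown for reference, because Tnnt1 chose the cells and because Krt12 and Pcp4 were among the genes highest relative to the other neurons. They are RefSeq promoter sequences of mouse build GRCm38.p6, 200 bases each, read 5′ to 3′ on the strand of the gene, with motif matches in capitals. Tnnt1 lies on chromosome 7 on the minus strand, Krt12 on chromosome 11 on the minus strand and Pcp4 on chromosome 16 on the plus strand. The windows of Krt12 and Pcp4 adjoin the GENCODE gene, whereas that of Tnnt1 lies inside its GENCODE span (4504570 to 4516382), which begins further upstream than the RefSeq start.
Tnnt1, chr7:4515976-4516175: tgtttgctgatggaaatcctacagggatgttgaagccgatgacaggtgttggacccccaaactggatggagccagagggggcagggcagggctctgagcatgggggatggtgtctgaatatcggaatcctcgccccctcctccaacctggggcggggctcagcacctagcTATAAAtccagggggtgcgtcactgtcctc
Krt12, chr11:99422260-99422459: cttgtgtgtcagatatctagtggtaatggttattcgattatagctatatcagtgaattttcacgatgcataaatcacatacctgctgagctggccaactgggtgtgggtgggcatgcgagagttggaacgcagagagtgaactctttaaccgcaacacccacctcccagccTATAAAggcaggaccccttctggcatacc
Pcp4, chr16:96467406-96467605: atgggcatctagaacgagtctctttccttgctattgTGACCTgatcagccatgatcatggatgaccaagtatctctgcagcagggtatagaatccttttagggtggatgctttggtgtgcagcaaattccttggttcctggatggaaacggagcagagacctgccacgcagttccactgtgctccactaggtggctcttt
The capitals mark TATAAA, the TATA box core, which began 30 bases before the start of Tnnt1 and 29 bases before that of Krt12, and the reverse complement of AGGTCA, the core site of ROR family receptors such as the product of Rora, which began 164 bases before the start of Pcp4. Both strands of the RefSeq windows (250 bases before to 50 after the start) were searched for TATAAA, for AGGTCA and for CTTTGA, the core bound by the Tcf and Lef family, and no matches overlapped. Of the 21 genes searched (Tnnt1, Ramp3 and the 19 named genes called higher below), 15 had an entry, with 16 promoters. TATAAA was found in 4 of them (Car4, Krt12, Ncan and Tnnt1), AGGTCA in 1 (Pcp4) and CTTTGA in 1 (Ncan). The TATAAA match of Car4 lay 42 bases after the start, and that of Ncan lay on the reverse strand, 11 bases before the start. Among all 32851 mouse promoters of the same length, 13.6% held TATAAA, 16.3% held AGGTCA and 16.0% held CTTTGA. A match is a description of these letters, not a binding site.

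The libraries held 163418203 and 204839993 UMIs in 7889 and 12107 barcodes, and 8 barcodes past the filters were shared between them. Tnnt1-gated neurons had more UMIs per cell than the other neurons of the same library, with medians of 106128 and 55946 against 69996 and 41326, and with 9876 and 8430 genes against 8647 and 7360.5. Their median mitochondrial share was 3.61% and 1.95%, against 3.84% and 2.73% in the other neurons. Scrublet called 1 Tnnt1-gated neuron in each mouse a doublet, out of 181 and 262 calls in the whole libraries, which is below the expected number. Markers of other cell types were present at low level in every neuron class. The 6 oligodendrocyte markers summed to 773 and 783 CPM (counts scaled to a common library total) in the Tnnt1-gated neurons, against 1216 and 949 in the other neurons. The sum of the astrocyte markers was 353 and 429 CPM, against 484 and 534, with Gfap at 0 in the Tnnt1-gated neurons. Microglia markers summed to 99.5 and 16.2 CPM, against 93.9 and 42.3, and endothelial markers to 103 and 16.7, against 45.8 and 32.2. Red blood cell markers summed to 188 and 21.7 CPM, against 154 and 123. No gene of these lists was called by edgeR in the comparison with the other neurons, and their part in the results was not tested. The tissue was dissociated with papain, protease and dispase, so the neurons are those that survived dissociation.

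Tnnt1 itself had a median of 41 UMIs per cell in the gated neurons of mouse 1 (range 6 to 143) and 20 in those of mouse 2 (2 to 81), or 3.83 and 3.54 per 10000. In the other neurons the median was 0, with 148 of 243 and 1305 of 1750 cells at 0. These values chose the cells and are a description. Just inside the threshold, between 1.5 and 2 per 10000, lay 8 and 32 cells, and just outside, between 1 and 1.5, lay 9 and 63. Prkcd had 1276 and 498 CPM in the cells just inside and 1175 and 450.1 CPM in those just outside, and Ramp3 had 391 and 284 CPM and 344 and 262 CPM. Other genes differed more between these small bins: Necab1 had 116 and 558 CPM just inside and 349.7 and 603 CPM just outside, and Grm8 had 28.6 and 10.8 CPM and 2.35 and 33.1 CPM, with the mice in opposite order. Outside the glutamatergic definition, 11 and 4 further cells passed the Tnnt1 threshold, of which 8 and 2 had more than 2 Gad1 plus Gad2 UMIs.

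**Figure D1:**
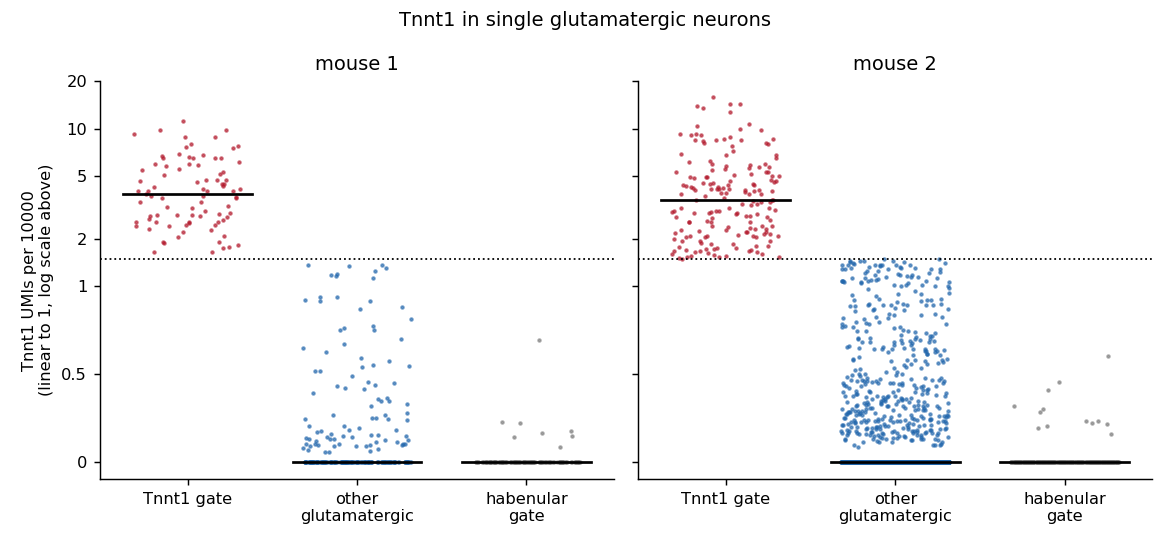
Tnnt1 UMIs per 10000 in each glutamatergic neuron of mouse 1 (left) and mouse 2 (right), by gate, on an axis that is linear to 1 and logarithmic above. Points are cells, bars are medians (3.83 and 3.54 in the Tnnt1 gate, 0 elsewhere) and the dotted line is the threshold of 1.5.

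Markers of thalamic relay neurons were present in the gated neurons. Ramp3, which encodes a receptor activity-modifying protein, had 375 and 356 CPM in the Tnnt1-gated neurons, against 111 and 115 CPM in the other neurons. Rora, a nuclear receptor gene, had 3648 and 3330.1 CPM in the Tnnt1-gated neurons, against 1915 and 2062 CPM in the other neurons. For both genes the 4 values did not overlap between the groups, as for 52.6% of all 16021 genes tested, and neither passed the test described below (log2 fold change 1.69 ± 0.51, adjusted p = 0.117 for Ramp3; log2 fold change 0.81 ± 0.25, adjusted p = 0.116 for Rora). Thinned to 10000 UMIs per cell, 90.8% and 82.3% of the gated neurons had a Ramp3 UMI, against 39.1% and 40.6% of the other neurons and 2.39% and 3.498% of cells gated as oligodendrocytes, which should lack it (unthinned 97.7% and 94.9%, 63.4% and 59.4% and 7.11% and 5.797%). The median depths of the oligodendrocyte gate were 25242 and 16025 UMIs, against 106128 and 55946 in the gated neurons. The oligodendrocyte gate admits at most 2 Snap25 plus Syt1 UMIs, so its cells were chosen for little neuronal RNA. Slc17a6, used in the gate, had 714 and 654 CPM in the Tnnt1-gated neurons and 531 and 637 CPM in the other neurons. Slc17a7, the other transporter in the gate, had 233 and 166 CPM against 52.3 and 34.8 CPM. The glutamatergic gate required their sum, not either gene, and neither was tested. Habenular and GABAergic markers were near 0: Tac2 had 2.69 and 1.38 CPM in the Tnnt1-gated neurons against 1426 and 761 CPM in the habenular gate, and Slc32a1, the vesicular GABA transporter gene, had 0.224 and 0 CPM against 344 and 217 CPM in neurons gated as GABAergic.

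To ask which other genes differed, UMIs were summed per mouse and gate and compared across the 2 mice with the other neurons, leaving out the habenular gate. The Tnnt1-gated neurons differed in 883 genes (5.51% of the 16021 that could be tested): 338 genes (2.11%) had a higher level and 545 (3.4%) a lower one. A gene counts here when its adjusted p is under 0.05 and its log2 fold change is 0.5 or more in either direction. Of the 16021 genes tested, 52.6% showed no overlap between the values of the groups, and all 883 called genes differed in the same direction in each mouse. Below, a gene is called higher or lower only where it passed this test, and levels are CPM after TMM scaling, with log2 fold changes ± standard error, n = 2 mice. Named genes are the largest differences of each list under a rule given with the processing, and the further called list members given beside them were chosen after their values were seen. The cells were divided by their own Tnnt1 counts, so genes that vary with Tnnt1 between cells differ by that choice of cells. The p-values set such a difference against how much the differences between gates varied from mouse to mouse. That spread was estimated with the habenular and GABAergic gates included. Without the mouse as a block in the model, 93 genes were called, all among the 883. Of the named genes called higher, 5 of 19 remained, among them Gabrd, Krt12, Pcp4 and Slc9a3r1, and 12 of the 31 called lower remained, among them Cplx2, Grm8, Hs3st4, Lmo3 and Slit2. In simulated counts with known changes, the share of false calls was above the nominal 0.05, so an adjusted p near that threshold carries little weight. A 5% mitochondrial limit ended the calls of 7 of the 50 named genes (Grm3, Htr2c, Ina, Kcnq5, Lgi2, Nefh and Pvalb), and testing without a filter on low counts ended 11, all lower (Cacna1e, Cacng3, Caln1, Cbln2, Ccdc192, Cplx2, Glra1, Kcnip1, Kcnq5, Sulf1 and Tmem200a). Of 29 further called list members, 24 lost their call without the mouse as a block, and those that kept it were Cacna1i, Grin2c, Hpcal1, Prkcd and Syt2. At the 5% limit 5 of the 29 lost it (Cck, Nefm, Plcb4, Syt2 and Syt10), and without the filter 3 did (Plcb4, Sema5b and Syt6). A further limit is the mixture in the reference: the other neurons had 671 and 139 CPM of Nwd2, a habenula-enriched gene, against 9.64 and 9.97 CPM in the Tnnt1-gated neurons, and 8 habenular list genes summed to 728 and 161 CPM there, against 20.1 and 18.8 CPM. Against the other neurons with Necab1 of at least 1.5 per 10000, a reference chosen after the data were seen, 274 of 15505 genes were called (1.77%), of which 254 were among the 883.

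**Figure D2:**
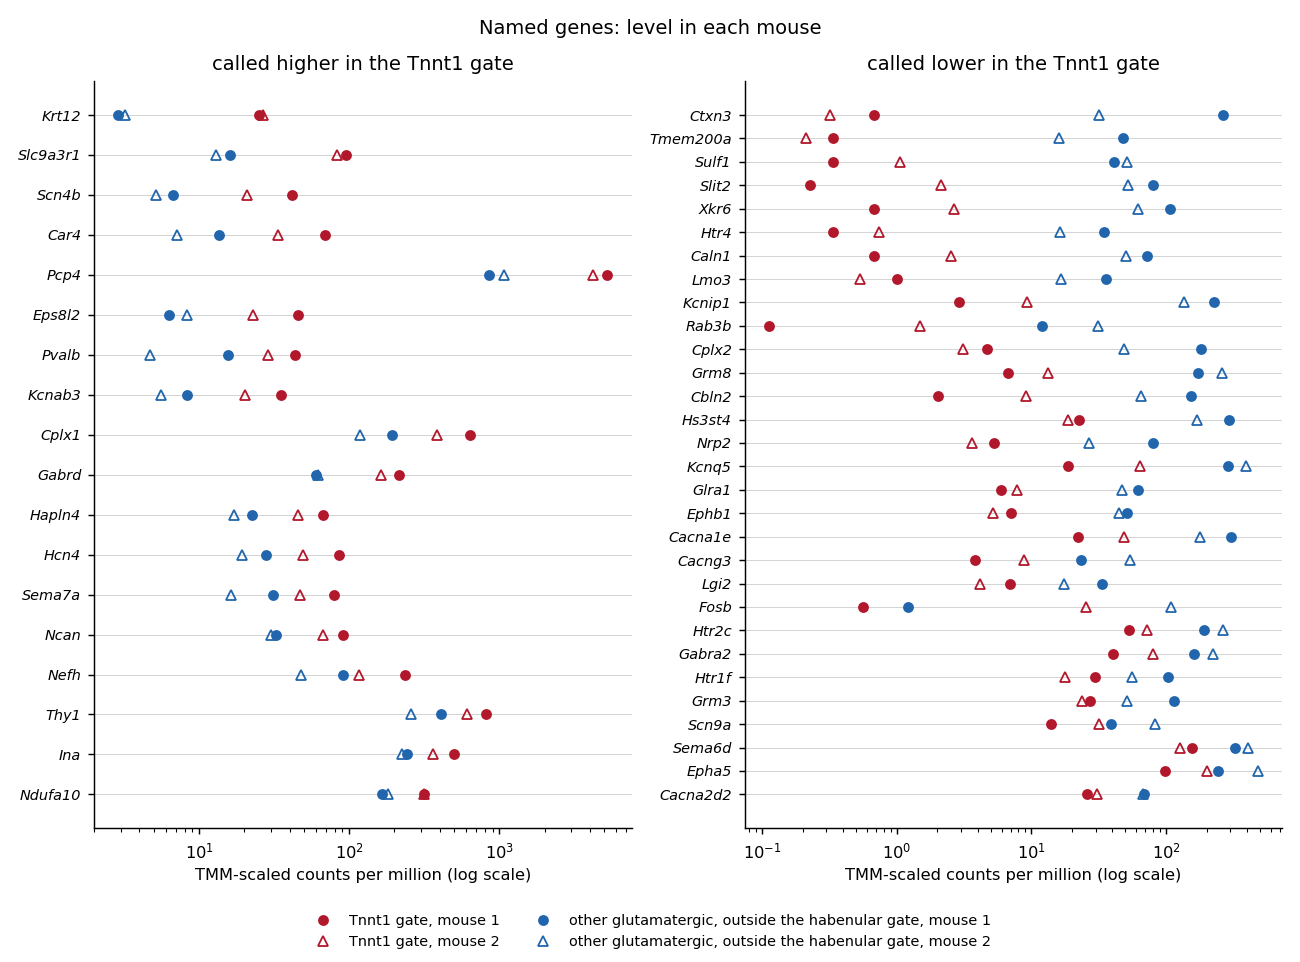
TMM-scaled CPM (log axis) of named genes called in the Tnnt1 gate against the other glutamatergic neurons outside the habenular gate, higher genes at left and lower genes at right. Each symbol is 1 mouse in 1 group (red, Tnnt1 gate; blue, other neurons); within each mouse every gene lay on the same side, Fosb differed more between the mice than between the groups, and Ccdc192, with 0 UMIs in the Tnnt1 gate, is not drawn.

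Genes associated with thalamic nuclei split in both directions. Of 34 tested, 5 were higher and 6 lower, against 2.11% and 3.4% of all genes tested. The median log2 fold change was -0.0043, against -0.013 over all genes. Prkcd, encoding protein kinase C delta, had 1409 and 911 CPM in the Tnnt1-gated neurons, against 294 and 167 CPM in the other neurons (log2 fold change 2.34 ± 0.28, adjusted p = 0.0142). Zic1, a zinc finger transcription factor gene, had 676 and 465 CPM in the Tnnt1-gated neurons, against 217 and 218 CPM in the other neurons (log2 fold change 1.38 ± 0.23, adjusted p = 0.0287), and Cck, the precursor of the peptide cholecystokinin, had 1009 and 1048 CPM in the Tnnt1-gated neurons, against 274 and 452 CPM in the other neurons (log2 fold change 1.53 ± 0.28, adjusted p = 0.0363). All 3 were higher in the Tnnt1-gated neurons of each mouse with no overlap between the groups, as for 52.6% of all genes tested. Plcb4, a phospholipase C gene, was higher by 0.77 ± 0.16 and Pvalb, encoding parvalbumin, by 2.03 ± 0.34 on the log2 scale. The Plcb4 call held in 7 of 15 alternative settings with a call, and its log2 fold change lay between 0.53 and 1.11 over them. Lmo3, a LIM-domain cofactor gene, was all but absent from the Tnnt1-gated neurons, with 1.01 and 0.531 CPM in the Tnnt1-gated neurons, against 35.7 and 16.7 CPM in the other neurons (log2 fold change -5.03 ± 0.43, adjusted p = 0.0121). Hs3st4, a heparan sulfate sulfotransferase gene, had 22.5 and 18.7 CPM in the Tnnt1-gated neurons, against 291 and 171 CPM in the other neurons (log2 fold change -3.47 ± 0.34, adjusted p = 0.0121). Cbln2, which encodes a cerebellin that organises synapses, had 2.02 and 9.12 CPM in the Tnnt1-gated neurons, against 153 and 64.8 CPM in the other neurons (log2 fold change -4.37 ± 0.75, adjusted p = 0.0364). Its log2 fold change was -6.16 in mouse 1 and -2.81 in mouse 2. The LIM-homeodomain genes Lhx2 and Lhx9 were lower by 1.81 ± 0.29 and 1.03 ± 0.17 on the log2 scale, and Nos1, the neuronal nitric oxide synthase gene, by 2.62 ± 0.51 at 0.561 and 0.955 CPM against 3.93 and 5.45 CPM. Necab1 and Calb2 had 195 and 325 CPM and 137 and 125 CPM in the Tnnt1-gated neurons, against 261 and 612 CPM and 226 and 595 CPM in the other neurons, and did not pass the test (log2 fold change -0.63 ± 0.64, adjusted p = 0.607 for Necab1; log2 fold change -1.37 ± 0.46, adjusted p = 0.144 for Calb2). Tcf7l2 (0.34), Lef1 (0.70), Gbx2 (-0.02), Rorb (0.60) and Shox2 (0.95), transcription factor genes of the thalamus, had log2 fold changes that did not pass. Over the Tnnt1, other, habenular and GABAergic gates, 14 of 35 nucleus list genes, Tnnt1 included, had their highest mean level in the Tnnt1 gate, 9 in the other neurons, 9 in the habenular gate and 3 in the GABAergic gate. The place of Tnnt1 follows from the gate, and no such share over all genes was computed. Zic1 had its highest mean level in the habenular gate and Pvalb in the GABAergic gate.

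Among channel genes, the Tnnt1-gated neurons had more of a few auxiliary and pacemaker subunits and less of several others. Over all genes tested, 2.11% were higher and 3.4% lower. Of 21 calcium and HCN channel genes, 1 was higher and 3 lower. Hcn4, a hyperpolarisation-activated channel gene, had 84.8 and 49.0 CPM in the Tnnt1-gated neurons, against 27.7 and 19.4 CPM in the other neurons (log2 fold change 1.47 ± 0.15, adjusted p = 0.0121). Cacna1e, the pore subunit of R-type calcium channels, had 22.2 and 48.4 CPM in the Tnnt1-gated neurons, against 305 and 178 CPM in the other neurons (log2 fold change -2.76 ± 0.46, adjusted p = 0.035), and in the habenular gate it had 1111 and 858 CPM. Cacna2d2, an auxiliary calcium channel subunit gene, was lower (-1.27 ± 0.15), as was the T-type gene Cacna1i, at 0.561 and 1.59 CPM against 12.1 and 20.2 CPM (-3.89 ± 0.37). Of 43 potassium channel genes, 2 were higher and 4 lower. Kcnab3, a beta subunit gene of voltage-gated potassium channels, had 35.3 and 20.3 CPM in the Tnnt1-gated neurons, against 8.24 and 5.596 CPM in the other neurons (log2 fold change 1.98 ± 0.27, adjusted p = 0.0197). Kcnip1, which modulates A-type channels, had 2.92 and 9.23 CPM in the Tnnt1-gated neurons, against 228 and 137 CPM in the other neurons (log2 fold change -4.92 ± 0.64, adjusted p = 0.0209). Kcnq5, a gene of the M-current family, had 18.7 and 64.6 CPM in the Tnnt1-gated neurons, against 290.0 and 396 CPM in the other neurons (log2 fold change -3.20 ± 0.60, adjusted p = 0.0439). The Kcnq5 call held in 10 of 15 alternative settings. Kcnc4 and Kcnk10 were also lower (-2.69 and -0.88). Of 14 sodium channel genes, Scn4b, an auxiliary beta subunit gene, was higher with 41.4 and 20.8 CPM in the Tnnt1-gated neurons, against 6.66 and 5.17 CPM in the other neurons (log2 fold change 2.29 ± 0.26, adjusted p = 0.014). Scn9a, a pore subunit gene, was lower with 14.0 and 31.9 CPM in the Tnnt1-gated neurons, against 39.2 and 82.7 CPM in the other neurons (log2 fold change -1.43 ± 0.16, adjusted p = 0.0139). The median log2 fold changes of the 3 lists were -0.18, 0.14 and -0.19.

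Receptor genes for transmitters were called in both directions. Over all genes tested, 48.7% had a log2 fold change above 0, 2.11% were called higher and 3.4% lower. Of 33 glutamate receptor genes and their auxiliary subunits, 2 were higher and 5 lower, 18 had a log2 fold change above 0 and the median was 0.03. Grin2c, an NMDA receptor subunit gene, had 79.8 and 68.6 CPM in the Tnnt1-gated neurons, against 28.0 and 28.9 CPM in the other neurons (log2 fold change 1.38 ± 0.13, adjusted p = 0.0121), and Cacng5, an AMPA receptor auxiliary subunit gene, was higher by 1.43 ± 0.24. The metabotropic receptor gene Grm8 had 6.73 and 13.3 CPM in the Tnnt1-gated neurons, against 173 and 262 CPM in the other neurons (log2 fold change -4.51 ± 0.23, adjusted p = 0.00781), and the gap between the groups was more than an order of magnitude in each mouse. Grm3, Cacng3, Grin3a and Gria1 were lower by 1.65 ± 0.31, 2.62 ± 0.52, 1.62 ± 0.19 and 1.44 ± 0.28 on the log2 scale, although Gria1, an AMPA receptor subunit gene, had a log2 fold change of -0.89 in mouse 2 alone. The calls of Cacng3 and Grm3 held in 9 and 11 of 15 alternative settings. That of Cacng3 was lost with DESeq2 size factors and with at least 20000 UMIs per cell, among others. Of 19 GABA and glycine receptor genes, 1 was higher and 2 lower, 7 had a log2 fold change above 0 and the median was -0.26. Gabrd, the delta subunit gene of GABA-A receptors outside synapses, had 215 and 164 CPM in the Tnnt1-gated neurons, against 60.02 and 61.6 CPM in the other neurons (log2 fold change 1.64 ± 0.23, adjusted p = 0.0207). Gabra2, an alpha subunit gene, had 40.3 and 79.7 CPM in the Tnnt1-gated neurons, against 162 and 225 CPM in the other neurons (log2 fold change -1.74 ± 0.18, adjusted p = 0.0121), and Glra1, a glycine receptor subunit gene, had 5.94 and 7.75 CPM in the Tnnt1-gated neurons, against 61.4 and 46.9 CPM in the other neurons (log2 fold change -2.98 ± 0.59, adjusted p = 0.0481). The Glra1 call held in 10 of 15 alternative settings. Of 42 receptor genes for serotonin, noradrenaline, acetylcholine, adenosine, opioids and related ligands, 2 were higher and 5 lower, 10 had a log2 fold change above 0 and the median was -1.03, against -0.013 over all genes. Adora1, the inhibitory adenosine receptor gene, and Adrb1, a beta-adrenergic receptor gene, were higher, at 169.9 and 141 CPM against 70.3 and 59.3 CPM and at 109.6 and 58.6 CPM against 44.6 and 26.8 CPM (1.26 ± 0.20 and 1.22 ± 0.17). The serotonin receptor genes Htr4, Htr2c and Htr1f were lower. Htr4 had 0.336 and 0.743 CPM in the Tnnt1-gated neurons, against 34.7 and 16.4 CPM in the other neurons (log2 fold change -5.49 ± 0.63, adjusted p = 0.0173), with 241 and 230.1 CPM in the habenular gate. Htr2c had 52.7 and 71.8 CPM in the Tnnt1-gated neurons, against 192 and 267 CPM in the other neurons (log2 fold change -1.88 ± 0.22, adjusted p = 0.014), and Htr1f had 29.6 and 17.6 CPM in the Tnnt1-gated neurons, against 103 and 55.7 CPM in the other neurons (log2 fold change -1.73 ± 0.19, adjusted p = 0.0139). The adrenergic receptor genes Adra1a and Adra2c were lower at 0 and 0.212 CPM against 2.07 and 5.94 CPM and 0.112 and 0.212 CPM against 1.96 and 1.80 CPM. Their levels in the gate rest on few UMIs, so the size of these differences is not resolved. The Adra2c call held in 11 of 14 alternative settings and was lost when cells with markers of other cell types were left out.

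Genes of transmitter release included a pair of complexins that differed in opposite directions. Cplx1 had 635 and 382 CPM in the Tnnt1-gated neurons, against 193 and 118 CPM in the other neurons (log2 fold change 1.71 ± 0.17, adjusted p = 0.0121), while Cplx2 had 4.71 and 3.08 CPM in the Tnnt1-gated neurons, against 181 and 49.0 CPM in the other neurons (log2 fold change -4.74 ± 0.58, adjusted p = 0.0182). Complexins bind the assembled SNARE complex and tune vesicle fusion. In total 1 of 34 release genes was higher and 6 were lower, against 2.11% and 3.4% of all genes tested. The other lower genes were Rab3b, a vesicle GTPase gene with 0.112 and 1.49 CPM in the Tnnt1-gated neurons, against 12.004 and 31.4 CPM in the other neurons (log2 fold change -4.78 ± 0.59, adjusted p = 0.0182), the synaptotagmin genes Syt2 (-2.68), Syt6 (-6.12) and Syt10 (-2.54), and the SNARE gene Stx1a (-0.75). The neurofilament and axon list had 4 of 17 members higher and none lower, with a median log2 fold change of 0.13. Nefh, the heavy neurofilament chain gene, had 233 and 116 CPM in the Tnnt1-gated neurons, against 90.1 and 48.0 CPM in the other neurons (log2 fold change 1.32 ± 0.17, adjusted p = 0.0174). Nefm, the medium chain gene, was higher by 0.82 ± 0.16 and Ina, encoding the related alpha-internexin, by 0.86 ± 0.16 on the log2 scale. Thy1, a surface glycoprotein gene, had 813 and 610.0 CPM in the Tnnt1-gated neurons, against 408 and 259.5 CPM in the other neurons (log2 fold change 1.12 ± 0.16, adjusted p = 0.0212). All 4 were higher within each mouse, and all 883 called genes had the same direction in each mouse. Nefh, Ina and Thy1 did not overlap between the groups, as for 52.6% of all genes tested. All 4 lost their call without the mouse as a block, and Nefh, Nefm and Ina lost it at a 5% mitochondrial limit. Nefm also lost it with cells thinned to 10000 UMIs and with the habenular gate set at 1 UMI.

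Matrix genes differed in both directions. Of 18 tested, 2 were higher and 1 lower, against 2.11% and 3.4% of all genes tested. A log2 fold change above 0 was seen in 7, against 48.7% of all genes tested, and the median was -0.20. Hapln4, a hyaluronan link protein gene of perineuronal nets, had 67.0 and 45.5 CPM in the Tnnt1-gated neurons, against 22.3 and 17.0 CPM in the other neurons (log2 fold change 1.505 ± 0.14, adjusted p = 0.0121), and Ncan, encoding neurocan, had 90.5 and 66.6 CPM in the Tnnt1-gated neurons, against 32.3 and 30.1 CPM in the other neurons (log2 fold change 1.32 ± 0.24, adjusted p = 0.0346). Lgi2, a secreted synaptic protein gene, had 6.95 and 4.14 CPM in the Tnnt1-gated neurons, against 33.7 and 17.5 CPM in the other neurons (log2 fold change -2.17 ± 0.28, adjusted p = 0.0177). Among axon guidance genes, 2 of 30 semaphorins, plexins and neuropilins were higher and 3 lower, and of 18 ephrins and Eph receptors none was higher and 2 were lower. Sema7a, a membrane-anchored semaphorin gene, had 78.6 and 46.6 CPM in the Tnnt1-gated neurons, against 31.1 and 16.2 CPM in the other neurons (log2 fold change 1.43 ± 0.12, adjusted p = 0.00924), and Sema6b was higher by 0.65 ± 0.12. Nrp2, a semaphorin co-receptor gene, had 5.27 and 3.61 CPM in the Tnnt1-gated neurons, against 80.2 and 26.8 CPM in the other neurons (log2 fold change -3.47 ± 0.37, adjusted p = 0.014), with 643 and 433 CPM in the habenular gate. Sema6d and Sema5b were lower by 1.38 ± 0.20 and 3.92 ± 0.71 on the log2 scale. The Eph receptor gene Ephb1 had 7.07 and 5.20 CPM in the Tnnt1-gated neurons, against 51.7 and 44.7 CPM in the other neurons (log2 fold change -2.98 ± 0.19, adjusted p = 0.00781), and Epha5 was lower by 1.28 ± 0.22. No cadherin gene of 19 was called by edgeR. Among those with at least 20 CPM on the higher side, Cdh22 had the largest fold change and did not pass, at 1.01 and 2.12 CPM in the Tnnt1-gated neurons, against 28.7 and 12.6 CPM in the other neurons (log2 fold change -3.63 ± 0.73, adjusted p = 0.0505). At an unadjusted level the whole comparison had 3896 genes with p below 0.05.

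Of 19 genes of calcium-binding proteins, Pvalb was higher, with 43.4 and 28.6 CPM in the Tnnt1-gated neurons, against 15.7 and 4.69 CPM in the other neurons (log2 fold change 2.03 ± 0.34, adjusted p = 0.0346), and Caln1 and Hpcal1 were lower. Caln1, encoding calneuron, had 0.673 and 2.55 CPM in the Tnnt1-gated neurons, against 72.4 and 50.6 CPM in the other neurons (log2 fold change -5.44 ± 0.77, adjusted p = 0.0245), and Hpcal1 had 1.35 and 1.06 CPM against 10.4 and 13.5 CPM (-3.32 ± 0.26). Of 33 immediate early and stress genes, Fosb alone was lower, against 3.4% of all genes tested. Its level differed far more between the mice than between the groups, with 0.561 and 25.4 CPM in the Tnnt1-gated neurons, against 1.20 and 109 CPM in the other neurons (log2 fold change -1.999 ± 0.32, adjusted p = 0.0274), and the log2 fold change in mouse 1 alone was -0.96. Of 85 nuclear-encoded genes of the respiratory chain, 81 had a log2 fold change above 0, against 48.7% of all genes tested, with a median of 0.23, and 1 passed the test: Ndufa10, of complex I, with 312 and 313 CPM in the Tnnt1-gated neurons, against 165 and 181 CPM in the other neurons (log2 fold change 0.85 ± 0.17, adjusted p = 0.0423). None of 80 ribosomal protein genes was called by edgeR. Of these, 8 had a log2 fold change above 0, and the median was -0.20. Ribosomal protein UMIs made up 1.70% and 2.34% of all UMIs in the Tnnt1-gated neurons, against 2.26% and 2.52% in the other neurons. The part of the number of UMIs per cell in the differences of these 2 lists was not tested.

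**Figure D3:**
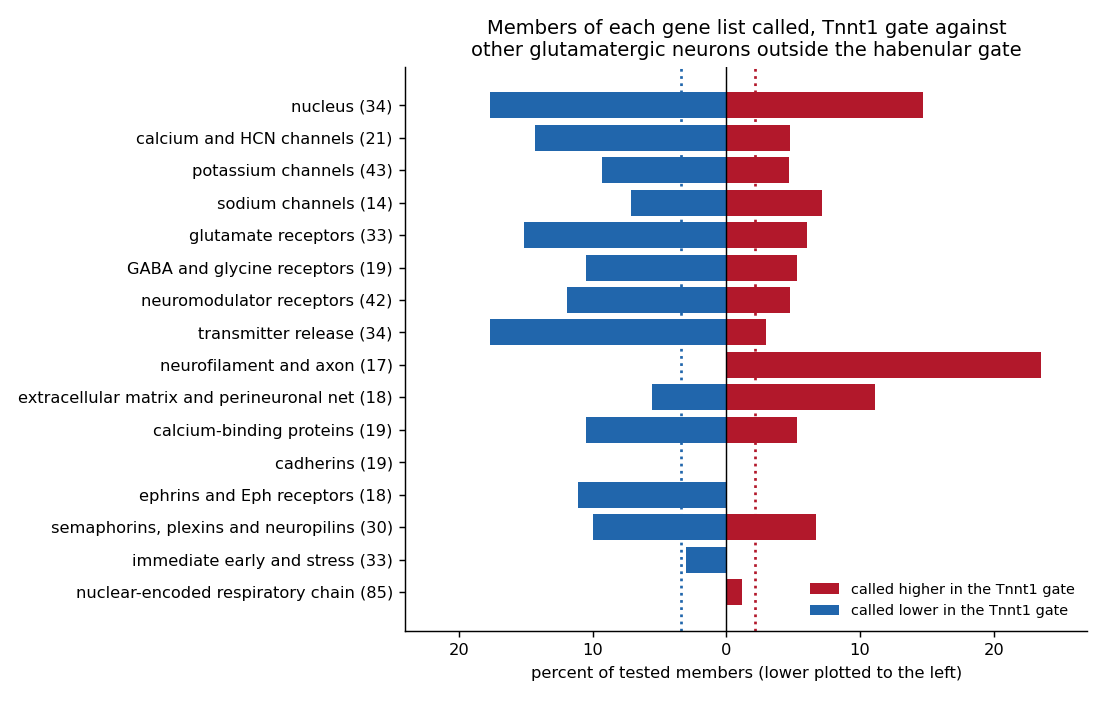
Percent of the tested members of each gene list (number in brackets) called higher (red, right) or lower (blue, left) in the Tnnt1 gate than in the other glutamatergic neurons outside the habenular gate. Dotted lines are the percentages over all genes tested, 2.11 higher and 3.4 lower; the neurofilament and axon list had 4 members higher and none lower.

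Outside the lists, the genes with the largest differences ran in both directions. Krt12, a keratin gene known from the cornea, had 25.1 and 26.5 CPM in the Tnnt1-gated neurons, against 2.89 and 3.22 CPM in the other neurons (log2 fold change 3.07 ± 0.28, adjusted p = 0.0121). Slc9a3r1, a PDZ scaffold gene, had 94.5 and 83.2 CPM in the Tnnt1-gated neurons, against 16.0 and 13.0 CPM in the other neurons (log2 fold change 2.63 ± 0.17, adjusted p = 0.00781). Both had higher levels in the Tnnt1 gate than in any other neuron class of either mouse, with 2.31 and 2.99 CPM of Slc9a3r1 in the habenular gate and 0.857 and 1.39 CPM in the GABAergic gate. Pcp4, which encodes a calmodulin-binding peptide, had 5239 and 4187 CPM in the Tnnt1-gated neurons, against 852 and 1069.9 CPM in the other neurons (log2 fold change 2.27 ± 0.31, adjusted p = 0.0201). Its level in the habenular gate was 2799.8 and 2787 CPM, between those groups. Car4, a membrane-bound carbonic anhydrase gene, and Eps8l2, related to an actin-capping protein gene, were higher by 2.28 ± 0.23 and 2.13 ± 0.34 on the log2 scale. On the lower side, Ctxn3, a cortexin gene, had 0.673 and 0.318 CPM in the Tnnt1-gated neurons, against 267 and 31.9 CPM in the other neurons (log2 fold change -7.98 ± 0.71, adjusted p = 0.0121). Slit2, an axon guidance ligand gene, had 0.224 and 2.12 CPM in the Tnnt1-gated neurons, against 79.8 and 52.6 CPM in the other neurons (log2 fold change -5.90 ± 0.68, adjusted p = 0.0175), and Sulf1, a heparan sulfate endosulfatase gene, had 0.336 and 1.06 CPM in the Tnnt1-gated neurons, against 41.2 and 51.7 CPM in the other neurons (log2 fold change -6.44 ± 1.15, adjusted p = 0.04). Tmem200a and Xkr6 had 0.336 and 0.212 CPM and 0.673 and 2.65 CPM in the Tnnt1-gated neurons, against 48.1 and 16.1 CPM and 106 and 61.7 CPM in the other neurons (-6.73 ± 0.98 and -5.60 ± 0.59). Ccdc192 had 0 UMIs in the Tnnt1-gated neurons and 1878 in the other neurons, and was at least 126-fold lower, taking 3 counts over the group as the floor.

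Part of these calls was lost against the reference with high Necab1. Of the 19 named genes called higher, 14 remained called against the other neurons with high Necab1, and of 30 named lower genes that could be tested there, 13 did. Every one of the 49 kept its direction. Scn4b (2.71 with adjusted p = 0.0182), Pvalb (3.58 with adjusted p = 0.0182) and Car4 (2.77 with adjusted p = 0.0182) had log2 fold changes at least as large as in the main comparison. The Tnnt1 gate kept its cells with low Necab1 here, so the groups were not matched for Necab1. With high Necab1 in both groups, Pvalb had 4.57 and 3.05 CPM in the gate, against 3.15 and 2.37 CPM, before TMM scaling. Scn4b then had 4.22 and 4.28 CPM against 5.20 and 3.38 CPM, and Car4 15.5 and 14.3 CPM against 11.2 and 4.06 CPM. Among the lower genes, Grm8 (-4.30 with adjusted p = 0.00197), Slit2 (-3.97 with adjusted p = 0.0358) and Cplx2 (-3.19 with adjusted p = 0.0227) remained called. Lmo3 (-2.52 with adjusted p = 0.185), Htr4 (-2.93 with adjusted p = 0.25), Hs3st4 (-1.70 with adjusted p = 0.0991) and Kcnip1 (-3.80 with adjusted p = 0.0617) did not. Of the 29 further called list members, 19 lost their call here: Adora1, Adra1a, Adra2c, Adrb1, Cacng5, Cck, Gria1, Hpcal1, Kcnc4, Lhx2, Lrrc55, Nos1, Nwd2, Plcb4, Prkcd, Sema5b, Sema6b, Syt6 and Zic1. Gria1 (-0.78 with adjusted p = 0.151) and Adora1 (0.76 with adjusted p = 0.291) had smaller log2 fold changes than the -1.44 and 1.26 with the mixed reference. The log2 fold change of Prkcd was about as large as before, at 2.15 with adjusted p = 0.0719, against 2.34 with the mixed reference. Those of Zic1 (0.85 with adjusted p = 0.148) and Cck (0.79 with adjusted p = 0.186) were smaller than the 1.38 and 1.53 with the mixed reference. Their levels in high-Necab1 other neurons were 392 and 139 CPM for Prkcd, 366 and 244 CPM for Zic1 and 586 and 558 CPM for Cck before TMM scaling.

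The Tnnt1-gated neurons were not uniform among themselves. Necab1 was at least 1.5 per 10000 in 28 of 87 gated neurons of mouse 1 (32.2%, exact 95% interval 22.6 to 43.1%) and in 87 of 175 of mouse 2 (49.7%, exact 95% interval 42.1 to 57.4%), against 74 of 243 (30.5%) and 1140 of 1750 (65.1%) of the other neurons. The values that follow are CPM without TMM scaling, and this division was made after the data were seen, so it is described and not tested. Gated neurons with low Necab1 had 56.6 and 51.2 CPM of Pvalb, and those with high Necab1 had 4.57 and 3.05 CPM. Scn4b had 54.0 and 35.1 CPM with low Necab1 and 4.22 and 4.28 CPM with high Necab1, where it lay near the 5.20 and 3.38 CPM of other neurons with high Necab1. The same order held for Kcnab3 (45.2 and 29.1 CPM and 5.63 and 9.37 CPM) and Car4 (85.7 and 49.0 CPM and 15.5 and 14.3 CPM). In each mouse these 4 genes were higher in the low-Necab1 cells of the gate than in its high-Necab1 cells. Calb2 ran the other way, with 2.72 and 30.7 CPM with low Necab1 and 423 and 208 CPM with high Necab1, and so did Calb1, encoding calbindin (104 and 186 CPM and 368 and 278 CPM). The other neurons had the same order for Calb2 (62.3 and 205 CPM and 531 and 726 CPM) and Calb1 (113 and 106 CPM and 288 and 327 CPM). Pvalb (21.7 and 10.1 CPM and 3.15 and 2.37 CPM), Scn4b and Car4 also kept their order there. For Kcnab3 the mice differed there (7.80 and 8.45 CPM and 8.67 and 4.24 CPM). Other genes that set the gated neurons apart were high in each gated subset. Prkcd had 1483 and 1222 CPM with low Necab1 and 968 and 508 CPM with high Necab1, against 236 and 222 CPM and 392 and 139 CPM in the same subsets of the other neurons. Pcp4 had 5338 and 5189.6 CPM and 4014 and 2772 CPM, against 387 and 574 CPM and 1711 and 1223 CPM. For Slc9a3r1 the values were 73.5 and 109 CPM and 126 and 49.3 CPM, against 8.37 and 11.5 CPM and 29.9 and 13.0 CPM, with the mice in opposite order within the gate. Grm8 was low in each gated subset, at 2.87 and 3.41 CPM and 14.4 and 22.0 CPM, against 193 and 264 CPM and 126 and 251.1 CPM. Tnnt1 itself was high in each by the choice of cells, at 456 and 475 CPM and 388 and 359 CPM.

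**Figure D4:**
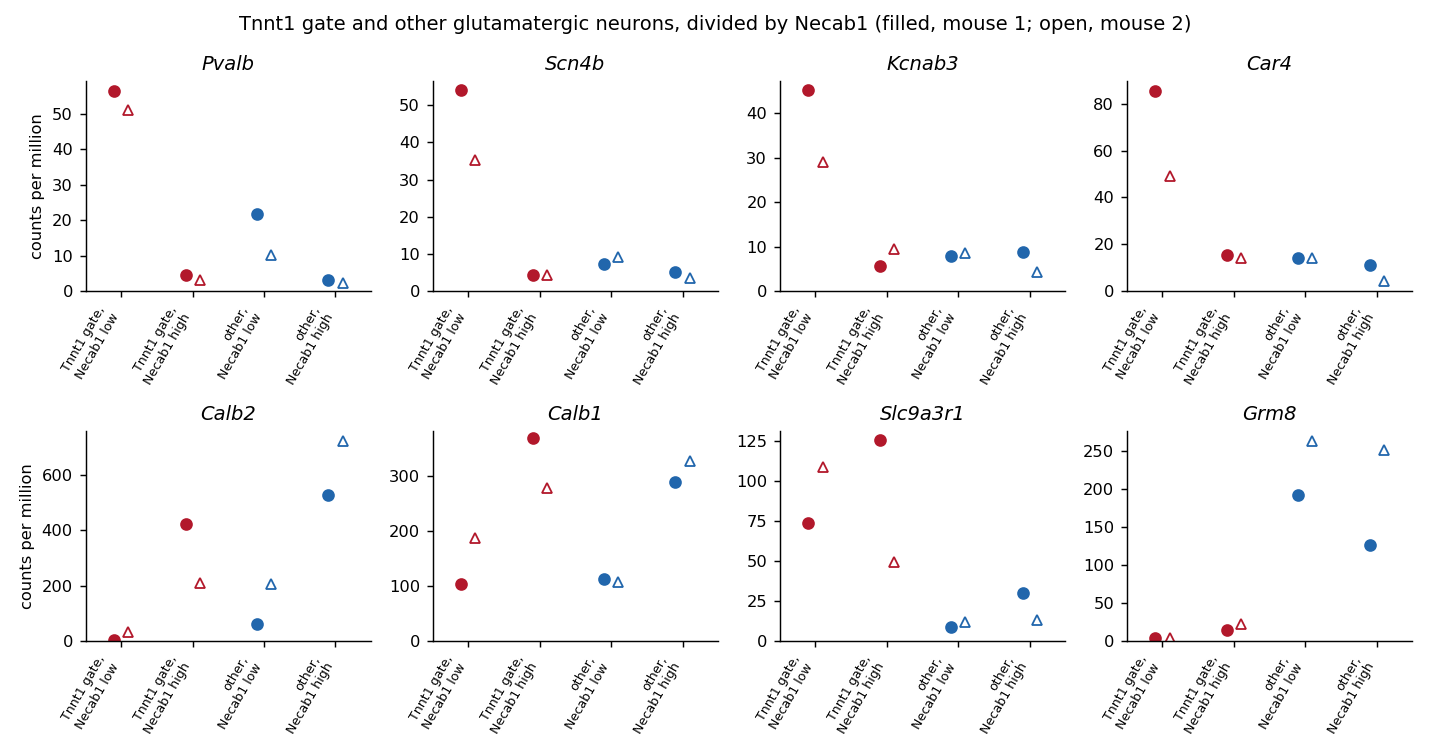
CPM of 8 genes in Tnnt1-gated neurons (red) and other glutamatergic neurons (blue), each divided at a Necab1 level of 1.5 per 10000; filled circles are mouse 1 and open triangles mouse 2. Pvalb, Scn4b, Kcnab3 and Car4 were highest in the Tnnt1-gated neurons with low Necab1, Calb2 and Calb1 were higher with high Necab1, and Grm8 was low in each gated subset.

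Within the gate, several genes also varied with the level of Tnnt1. In the 19 and 32 cells with at least 6 Tnnt1 UMIs per 10000, Pvalb was higher than in the bins below. It had 10.3 and 5.20 CPM between 2 and 3 per 10000, 32.5 and 28.6 CPM between 3 and 6 and 104 and 86.2 CPM above. Scn4b had 24.9 and 8.55 CPM between 2 and 3, 45.0 and 25.5 CPM between 3 and 6 and 54.5 and 39.3 CPM above. In the same 3 bins Nefh had 163 and 78.8 CPM, 226 and 118 CPM and 314 and 191 CPM. Pcp4 had 4070.2 and 3226 CPM, 5051 and 3869 CPM and 6519 and 7239 CPM. Necab1 had 116 and 558 CPM between 1.5 and 2, and in the 3 bins above it had 351 and 407 CPM, 136 and 228 CPM and 94.1 and 88.7 CPM. In the 4 bins inside the gate, Rora lay between 2879.5 and 3652 CPM, and Ramp3 between 272 and 396 CPM. In mouse 1 the bins between 1 and 1.5, between 1.5 and 2 and above 6 held 9, 8 and 19 cells, too few to fix a trend. Below the gate, Grm8 had 252 and 322 CPM in cells with no Tnnt1 UMI, 77.6 and 105 CPM up to 1 per 10000 and 2.35 and 33.1 CPM between 1 and 1.5. For this gene, cells just outside the gate, 9 of them in mouse 1, lay closer to the gated neurons than the rest did. Prkcd and Ramp3 also had levels just outside the gate near those just inside. In mouse 1, Prkcd had 116 CPM with no Tnnt1 UMI and 424 CPM up to 1 per 10000, and Ramp3 had 62.8 and 146 CPM.

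**Figure D5:**
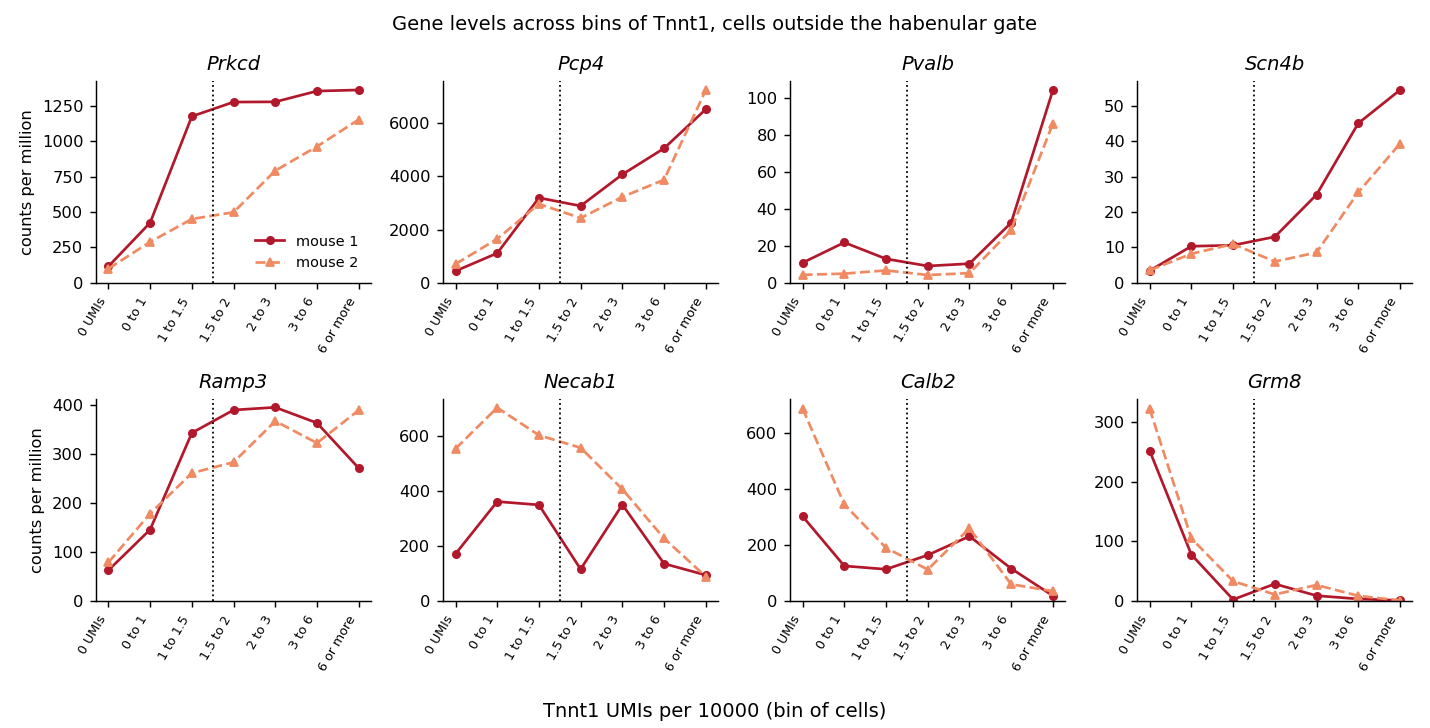
CPM of 8 genes in glutamatergic neurons outside the habenular gate, by bin of Tnnt1 UMIs per 10000 (solid, mouse 1; dashed, mouse 2), with the gate threshold as a dotted line. Pvalb and Scn4b were highest in the top bin, Pcp4 was highest in the top bin too, Necab1 and Calb2 were lowest in the top bin within each mouse, and Grm8 was lower in every bin from 1 up than in the bins below 1.

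Correlations between gated neurons, thinned to 25000 UMIs (87 and 166 cells, with 9 shallower cells of mouse 2 left out), were computed as well. They are across cells of 1 library that share dissociation and free RNA, and are given without a test. Spearman's rho was 0.59 and 0.57 for Pvalb with Scn4b and 0.63 and 0.55 for Cplx1 with Nefh. Necab1 was positively related to Calb2 (0.65 and 0.34) and negatively to Scn4b (-0.51 and -0.40). Necab1 and Prkcd had a rho of -0.30 and -0.66. Ramp3 was negatively related to Pvalb (-0.57 and -0.19) and to Scn4b (-0.52 and -0.20) and positively to Calb1 (0.61 and 0.38). Tnnt1 was related to Pcp4 (0.50 and 0.37) but not to Rora (-0.10 and 0.06), and with Ramp3 the values differed in sign between the mice (-0.24 and 0.04). At this depth, 25.3% and 18.1% of the gated neurons had a Pvalb UMI, 44.8% and 22.3% a Scn4b UMI, 43.7% and 59.0% a Necab1 UMI and 25.3% and 44.0% a Calb2 UMI. A Prkcd UMI was found in 98.9% and 86.1%, a Pcp4 UMI in 100% and 95.8% and a Cck UMI in 100% and 99.4%. Free RNA can give such UMIs in cells that lack a gene, so the oligodendrocyte gate is set beside the shares at 10000 UMIs per cell. That gate admits at most 2 Snap25 plus Syt1 UMIs, so its cells were chosen for little neuronal RNA. Its shares may therefore understate the free RNA. Prkcd was then found in 97.7% and 80.6% of gated neurons, against 8.98% and 9.70% of the oligodendrocyte gate (unthinned 98.9% and 87.4% against 21.4% and 15.3%). For Pcp4 it was 100% and 92.6% of gated neurons, against 25.9% and 26.4% of the oligodendrocyte gate (unthinned 100% and 96.0% against 52.8% and 40.0%). Cck had a UMI in 98.9% and 97.1% of gated neurons, against 7.58% and 7.75% of the oligodendrocyte gate (unthinned 100% and 98.3% against 17.0% and 13.3%). Necab1 was seen in 40.2% and 53.7% of gated neurons, against 2.45% and 8.75% of the oligodendrocyte gate (unthinned 56.3% and 67.4% against 5.77% and 14.0%). The share for Calb2 was 24.1% and 32.0% of gated neurons, against 2.22% and 10.4% of the oligodendrocyte gate (unthinned 42.5% and 55.4% against 6.53% and 16.7%). All 5 genes were seen in more of the gated neurons than of the oligodendrocyte gate in each mouse, and Pcp4 had the highest share there. Thinned to 10000 UMIs, 20.7% and 12.6% of gated neurons had a Pvalb UMI, against 8.64% and 2.80% of the other neurons and 0.758% and 0.700% in the oligodendrocyte gate, and 28.7% and 14.9% had a Scn4b UMI, against 6.58% and 3.89% and 0.292% and 0.550%. Without thinning the shares were 49.4% and 22.3%, 21.8% and 7.54% and 1.92% and 1.35% for Pvalb and 69.0% and 34.3%, 22.2% and 11.9% and 0.875% and 1.05% for Scn4b.

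Set against all other glutamatergic neurons, with the habenular gate included, the same test called 1481 of 15545 genes (9.53%), of which 625 (4.02%) had a higher level and 856 (5.51%) a lower one. This comparison shares the gated neurons and most of the reference with the one above, so its values are given beside it and not as support. The genes highest relative to this reference included Krt12, Slc9a3r1, Prkcd and Scn4b. Prkcd had 1408 and 899 CPM in the Tnnt1-gated neurons, against 215 and 144 CPM in all other glutamatergic neurons (log2 fold change 2.68 ± 0.20, adjusted p = 0.00762). Those lowest included genes high in the habenular gate: Chat had 118 and 69.6 CPM there, Syt6 298 and 209 CPM, Chrnb3 179 and 64.1 CPM and Htr5b 96.6 and 88.4 CPM. Ctxn3 had 0.673 and 0.314 CPM in the Tnnt1-gated neurons, against 194 and 27.3 CPM in all other glutamatergic neurons (log2 fold change -7.68 ± 0.34, adjusted p = 0.00354), and Syt6, a synaptotagmin gene, had 0.336 and 0.105 CPM in the Tnnt1-gated neurons, against 97.9 and 33.5 CPM in all other glutamatergic neurons (log2 fold change -8.11 ± 0.68, adjusted p = 0.00901). Chat, the enzyme of acetylcholine synthesis, had no UMI in the Tnnt1-gated neurons and was at least 122-fold lower by the same floor. Chrnb3, a nicotinic receptor subunit gene, had 3 UMIs, all in mouse 2, and was 123-fold lower (95% counting interval 42.1 to 598), at 0 and 0.314 CPM against 53.4 and 9.38 CPM. Its call was lost without the mouse as a block. Htr5b, a serotonin receptor gene, had 2 UMIs and was 152-fold lower (42.0 to 1255). Of the 8 habenula list genes 7 were lower. The list includes Pou4f1 and Gng8, which did not define the groups of this comparison.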

How the data were processed

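Thalamus from 2 mice was profiled by 10x 3′ single-cell RNA sequencing, 1 library per mouse. The deposited files hold raw UMI counts per gene and cell, made by the authors with Cell Ranger 7.1.0, per the file headers and the submitters' processing notes, which also name Seurat 5 and mm10; the sources used here do not give the annotation version or the intron and strand settings, so overlapping and antisense genes cannot be told apart. Gene positions came from GENCODE for GRCm38.

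Cells were gated as described, with scanpy 1.11.5 and Scrublet in Python 3.11.15. The GABAergic gate required at least 5 Gad1 plus Gad2 UMIs, and the oligodendrocyte gate, set after the data were seen, at least 20 UMIs per 10000 of Mobp, Mag, Mog and Cldn11 together and at most 2 Snap25 plus Syt1 UMIs. Counts were summed per mouse and gate and tested with the quasi-likelihood test of edgeR 4.0.16 (R 4.3.3; TMM, filterByExpr, Benjamini-Hochberg adjustment over all genes tested), with the mouse as a block because each animal gave every gate. The GABAergic gate and, where it was left out of the reference, the habenular gate entered the fit. Standard errors were derived from the F statistic. Mitochondrial genes and the genes that defined the compared groups were not tested; Pou4f1 and Gng8 were tested only where the habenular gate stayed in the reference. A few named genes are not reported here. The steps were tested on simulated data, where the share of false calls was above the nominal rate. Alternatives included DESeq2 1.42.0.

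Named genes were up to 3 called genes per list with the largest absolute log2 fold change and 20 CPM or more in the higher group, or the largest uncalled one where a list had none, up to 6 in each direction outside the lists, and up to 5 in each direction against all other glutamatergic neurons; nucleus genes could be named whatever their values. Members and lists were chosen with earlier results of these data known. Gate-wise depth is given in the text; intervals cover counting error only.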

Additional observations from a re-analysis of the deposited data

How the results depend on the processing

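The pairing comes from the animals, since each mouse gave both groups. Without this replicate block, 587 genes were called against all other glutamatergic neurons and 93 (20 higher, 73 lower) against those outside the habenular gate; 17 of the 50 named genes called there remained called. Fitting the 2 compared gates alone gave 2679 and 2413 genes. In the comparison outside the habenular gate, the DESeq2 test called 1749 genes, a reference with 0 Tnnt1 UMIs 1673, leaving out cells with markers of other cell types 1476, and the high-Necab1 reference, chosen after seeing the data, 274. The causes were not tested. Within single mice, 1474 to 1480 and 877 to 880 of the called genes had a log2 fold change of at least 0.5 in the same direction, with no test; sizes moved more, and in 1 mouse those of Cbln2, Fosb, Ccdc192 and Gria1 outside the habenular gate, and of Chat and Chrnb3 against all other glutamatergic neurons, differed from the value over both by over 1.5 times. Single-mouse values were taken with a prior count of 2, and the value over both mice came from the fit. Ccdc192 and Chat had 0 UMIs in the Tnnt1 gate, and both single-mouse values were smaller in size than the fitted one. For these genes the gap therefore cannot be read as a difference between the mice. No named gene reversed direction. The share of glutamatergic neurons inside the Tnnt1 gate, for mouse 1 and mouse 2, was 26.4% and 9.09% outside the habenular gate, 13.0% and 4.55% at a threshold of 3 per 10000, and 26.1% and 9.34% at a mitochondrial limit of 5%. With 2 mice, the p-values rest on few degrees of freedom, and genes of low count were not resolved at this depth.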
